A study of Mus musculus with 12 samples.

Results

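The sequences described here are small RNAs that match mt-Ts2, the mitochondrial gene of tRNA-Ser(GCT), without a mismatch. They were selected by alignment: every unique sequence of the 12 deposited libraries was aligned to mouse mtDNA (GRCm39), and the sequences with 0 mismatches on the forward strand and most of their match between positions 11613 and 11671 were kept. This gave 22 of the 204 sequences (10.8%), which held 147718 of the 403352 reads (36.6%). The gene itself was picked from its reads in these same libraries, so its high share is a description and not a result of a test. Another 13 sequences of the gene carry 1 mismatch (7780 reads) and were not included, and 0 sequences matched its reverse strand.

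The study sequenced small RNAs of embryonic gonads from mice of the outbred CD1 strain on embryonic days E11.5, E12.5 and E13.5. Each gonad pool was separated into primordial germ cells (PGCs), the precursors of eggs and sperm, and the remaining gonadal somatic cells (SCs) with magnetic beads coated with an anti-CD15 antibody. Female and male gonads were kept apart, which gave 12 conditions (cell type, sex and day) with 1 library each, named here by cell type, day and sex (PGC11F is the female PGC library of E11.5). Embryos of several litters were pooled per library, each separated fraction keeps a minority of the other cell type, and the deposited lists hold no messenger RNA, so the purity could not be checked on marker genes here. The paper reports a germ cell stain of both fractions and a minimum purity that every sample had to reach.

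Mitochondrial genes are transcribed as long RNAs, from which tRNAs are released by RNase P, which cuts at the 5′ end, and by RNase Z, which cuts at the 3′ end. The tRNA-Ser(GCT) reads the AGY serine codons and is known for its missing D-arm, so its anticodon lies nearer to the 5′ end than in other tRNAs. Fragments that begin at the first base of a tRNA are a common class of small RNA, and piRNAs are small RNAs bound by PIWI proteins, best known for silencing transposons in the germline. The study kept a mitochondrial sequence as a mito-piRNA when it resembled one recovered with a PIWI protein elsewhere, and the libraries here were not themselves made from a PIWI pull-down.

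The whole gene is printed first, because all 22 sequences are stretches of it, followed by the shortest, the 2 most read (22 and 26 nt) and the longest sequence from the first base and the most read sequence with another 5′ end. Sequences run 5′ to 3′ on the forward strand of the mtDNA, and capitals mark the bases of the GCT anticodon (bases 20 to 22 of the gene, positions 11632 to 11634).
mt-Ts2, whole gene, positions 11613 to 11671: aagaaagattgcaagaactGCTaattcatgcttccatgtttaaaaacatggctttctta
16 nt from the first base: aagaaagattgcaaga
22 nt from the first base: aagaaagattgcaagaactGCT
26 nt from the first base: aagaaagattgcaagaactGCTaatt
33 nt from the first base: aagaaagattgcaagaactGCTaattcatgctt
19 nt from the third base: gaaagattgcaagaactGC

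The gene has 59 bases (ENSMUSG00000064365.1, forward strand) and lies directly after mt-Th, which ends at 11612. Its anticodon loop covers bases 18 to 24, and the stem of bases 13 to 17 with 25 to 29 forms 4 of 5 pairs. The label of the gene fits its sequence, since the GCT triplet is at the centre of that loop. All of the reads lay in the 5′ part of the gene: the last base read was base 33, and the final 26 bases, which hold the T-arm and the 3′ end of the tRNA, had no listed sequence in any of the 12 libraries. A list shows only sequences above the study's limit of 10 CPM (counts scaled to 1000000 reads) that also match its database of PIWI-bound sequences. A sequence listed in no library may therefore have been below the limit or missing from the database, and a sequence listed elsewhere but not in a given library was below the limit there and not necessarily absent. The smallest listed count was 66 to 109 reads by library, or 14.6 to 17.8 rpm, where rpm stands for reads per 1000000 of the total small RNA reads that the study lists.

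The library PGC13F stood apart from the other 11 in the last base of its reads. For first-base sequences, lengths that end in A before a base other than A (17, 24 and 28 nt) had 2999 reads in PGC13F and 0 reads in the other 11 libraries together. Lengths that end in C or in CT held 60.0% of the first-base reads in the other 11 libraries and 0.919% (100 reads) in PGC13F. Among the exact matches outside mt-Ts2, sequences ending in A before another base took 33.8% of those reads in PGC13F (21 sequences, 7957 reads) and 0 reads in the others, while those ending in C or CT took 10.2% in PGC13F and 40.5% in the others. The rows of lengths in this library therefore have gaps and peaks at other lengths than the rest, and the comparisons of length and the levels of single lengths below are given with and without it. The part of trimming, ligation or RNA in this difference was not tested.

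Of the 22 sequences, 18 start at the first base of the gene (position 11613) and hold 145173 reads (98.3%). Taken over all libraries together, they form a ladder of every length from 16 to 33 nt. No single library lists every length, and 17, 24 and 28 nt come from PGC13F alone. The other 4 start at the third base (11615) or the base after it (11616) and hold 2545 reads (1.72%). The start is thus nearly fixed, at the base where the tRNA begins, while the 3′ end varies over 18 positions.

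Of the first-base reads, 31915 (22.0%) ended before the anticodon (16 to 19 nt), 53178 (36.6%) ended within the anticodon or the rest of the loop (20 to 24 nt), and 60080 (41.4%) ended beyond the loop. Without PGC13F these shares were 21.1%, 37.3% and 41.6%. The 22-nt sequence, whose last base is the last base of the anticodon, was the most read with 34472 reads. After it came the 26-nt sequence (17507 reads), the 25-nt (16286), the 16-nt (11466) and the 27-nt (9823), and these 5 together held 60.6% of all reads of the 22 sequences. The next base of the gene after the 16-, 22- and 27-nt sequences is an A, and the trimming described below can remove a final A. Their counts may therefore include reads longer by that base, which was not tested. The 22-nt sequence was the most read length in 10 of 12 libraries. The exceptions were PGC13F, where the 17-nt sequence led, and SC11M, where the 26-nt sequence led.

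The lengths listed in every library were 6 (16, 18, 20, 25, 26 and 30 nt), and they held 65974 reads. A further 5 (19, 21, 22, 27 and 31 nt) were listed in 11 libraries, all but PGC13F. The remaining lengths were rarer. The 23-nt sequence was listed in 10 libraries (3276 reads), the 32-nt in 8 (1728 reads), the 33-nt in 6 (908 reads), and the 29-nt in 2, with 111 reads in SC13F and 119 in SC13M. The 17-, 24- and 28-nt sequences were listed in PGC13F alone, with 2625, 231 and 143 reads.

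The 22-nt sequence ranged in the 6 PGC libraries from 0 listed reads in PGC13F to 597 rpm in PGC12M, with a median of 333 rpm (395 without PGC13F). In the 6 SC libraries it ranged from 153 rpm in SC11M to 1991 rpm in SC13M, with a median of 505 rpm. The groups overlapped, and 4 of 6 SC libraries had a larger share of it than the PGC library of the same sex and day. Its share of the first-base reads was 18.0% to 32.5% in the 11 libraries that list it, with an SD of 4.64 percentage points (n = 11).

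The 26-nt sequence lay between 97.9 and 299 rpm in PGC libraries (median 147, or 131 without PGC13F) and between 156 and 683 rpm in SC libraries (median 297). The 25-nt sequence lay between 103 and 258 rpm in PGC libraries (median 202, or 154 without PGC13F) and between 105 and 524 rpm in SC libraries (median 262). Both reach just past the 3′ side of the anticodon loop, and for both the groups overlapped. The 16-nt sequence, which ends in the 5′ strand of the anticodon stem, lay between 76.4 and 244 rpm in PGC libraries (median 176, or 170.4 without PGC13F) and between 67.0 and 278 rpm in SC libraries (median 173). The 27-nt sequence lay between 0 listed reads and 190 rpm in PGC libraries (median 108, or 129 without PGC13F, the library with the 0) and between 88.3 and 309 rpm in SC libraries (median 177).

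The 18-nt sequence was the most uneven of the lengths listed everywhere. It took 0.919% of the first-base reads in PGC13F, 1.89% in SC13F and 19.3% in PGC13M, and its counts were 100, 417 and 1300 reads there. Without PGC13F its share was 7.26% ± 5.77 (SD, n = 11), against 8.40% ± 2.13 for the 16-nt and 3.17% ± 0.438 for the 20-nt sequence. The 31-nt sequence took 10.6% in PGC12M and 0.967% in SC13M, and the 26-nt sequence 19.4% in SC11F and 6.67% in PGC11M.

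In PGC13F several lengths were higher instead. The 20-nt sequence had 1682 reads there (15.5% of first-base reads, against at most 3.95% elsewhere), the 23-nt sequence 1120 reads (10.3% against at most 1.93%), and the 30-nt sequence 1265 reads (11.6% against at most 4.51%). The total of all 22 sequences in this library, 2152 rpm, was within the range of the other PGC libraries.

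All 22 sequences together reached 2001 rpm in PGC11F, 1963 in PGC11M, 820 in PGC12F, 2231 in PGC12M, 2152 in PGC13F and 1270 in PGC13M. In SC libraries they reached 2217 rpm in SC11F, 961 in SC11M, 1695 in SC12F, 2115 in SC12M, 3512 in SC13F and 6165 in SC13M. The SC libraries of E13.5 were the highest of the 12, and the other 4 SC libraries lay within the range of the PGC libraries. The mean was 1739 ± 565 rpm in PGCs and 2778 ± 1857 rpm in SCs (SD, n = 6 each). On the log2 scale, log2(rpm + 1), the SC mean was 0.51 higher (two-sided exact permutation test over the libraries, p = 0.281, adjusted p = 0.444 over 14 exact tests). Without PGC13F it was 0.59 higher (exact permutation p = 0.258, adjusted p = 0.451). The difference was 0.23 without SC13M, 0.31 without PGC12F and 0.77 without SC11M, and 0.28 over the 6 sequences listed in all libraries. In such bulk fractions a change in the number of cells that hold an RNA and a change in the RNA per cell cannot be told apart.

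By sex the level was 2066 ± 873 rpm in females and 2451 ± 1887 rpm in males (n = 6 each, log2 difference 0.10, exact permutation p = 0.848, adjusted p = 0.848). The direction by sex was not stable, at -0.46 with mitochondrial small RNA reads as the denominator, -0.15 without PGC12F, -0.22 without SC13M and 0.31 without SC11M. By day, E11.5 libraries had a mean of 1786 ± 561 rpm, E12.5 libraries 1715 ± 639 rpm and E13.5 libraries 3275 ± 2136 rpm (n = 4 each, F = 1.34, exact permutation p = 0.317, adjusted p = 0.444). With mitochondrial small RNA reads as the denominator the F by day was 0.801 (exact permutation adjusted p = 0.516). Without SC13M, SC13F or PGC13M it was 0.368, 0.726 or 3.26 (exact permutation adjusted p = 0.684, 0.598 and 0.356). The values overlapped between the sexes and between the days. Since each condition has 1 library, these p-values measure the spread between libraries that also differ in the other factors.

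The share of a library's mito-piRNA reads held by the 22 sequences ran from 16.7% in SC11M (95% Wilson interval 16.2 to 17.1) to 53.6% in SC12F (52.9 to 54.3). These intervals cover counting error only. The lowest shares were those of SC11M, PGC13M (17.6%) and PGC11M (24.9%), all male, while SC13M (47.0%) and PGC12M (44.1%) were among the highest. The mean share was 31.6% ± 10.3 in PGCs and 41.0% ± 12.7 in SCs, a difference of 9.46 percentage points (n = 6 each, exact permutation p = 0.186, adjusted p = 0.444). The male minus the female mean was -8.47 points (exact permutation p = 0.240, adjusted p = 0.444). Without PGC13F these differences were 9.12 and -10.6 points (exact permutation adjusted p = 0.451 and 0.374). The difference between cell types was 14.3 points without SC11M (exact permutation adjusted p = 0.141) and 1.98 points over the 6 sequences listed in all libraries (exact permutation adjusted p = 0.700). The difference between sexes was -5.39 points without SC11M, -5.57 without PGC13M and -5.41 over those 6 sequences. By day the mean share was 32.1% on E11.5 (lowest 16.7%, highest 44.1%), 42.6% on E12.5 (30.3% to 53.6%) and 34.3% on E13.5 (17.6% to 47.0%), with n = 4 each (F = 0.808, exact permutation p = 0.471, adjusted p = 0.549). This F was 0.267 without SC12F, 0.531 without PGC11M, 0.533 without PGC12M, 1.27 without SC11F and 1.40 without PGC12F.

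The SC ladder had a slightly longer mean, a difference that did not pass the test after adjustment. The read-weighted mean length of the first-base sequences was 22.7 ± 0.630 nt in PGCs and 23.5 ± 0.557 nt in SCs (n = 6 each), a difference of 0.744 nt (exact permutation p = 0.0519, adjusted p = 0.242). The SC library had the longer mean in 6 of 6 pairs of the same sex and day, by 0.102 to 1.40 nt. Permuting within these pairs gave p = 0.0312, the smallest that 6 pairs allow in an exact test, and adjusted p = 0.146. The pairs include PGC13F (22.0 nt, against 23.4 nt in SC13F), and the pair test was not run without it. With fewer pairs the smallest possible exact p would be larger. Without PGC13F the difference was 0.600 nt (exact permutation p = 0.106, adjusted p = 0.297). Sequences of 16 to 19 nt held 18.4% to 33.5% of the first-base reads in PGC libraries and 14.9% to 22.5% in SC libraries, and those of 25 to 28 nt held 22.8% to 36.1% and 24.7% to 41.9%.

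By sex, the male minus the female mean length was -0.519 nt (exact permutation p = 0.206, adjusted p = 0.444). Without PGC13F, the library with the shortest mean (22.0 nt), it was -0.788 nt (exact permutation p = 0.0390, adjusted p = 0.171), and over the 6 sequences listed in all libraries -1.29 nt (exact permutation p = 0.0238, adjusted p = 0.111). By day the mean length was 23.4 ± 0.704 nt on E11.5, 23.4 ± 0.499 nt on E12.5 and 22.5 ± 0.593 nt on E13.5 (n = 4 each, F = 2.61, exact permutation p = 0.148, adjusted p = 0.444). This F was 5.89 without PGC11M (exact permutation p = 0.0267, adjusted p = 0.124), 4.77 without SC13F, 1.63 without PGC13M, 1.35 without PGC13F and 0.0446 over the 6 sequences listed in all libraries.

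The share of the 22-nt sequence was 5.45 points higher in SCs (exact permutation p = 0.297, adjusted p = 0.444), and 1.60 points higher without PGC13F (exact permutation p = 0.591, adjusted p = 0.689). That difference therefore rested for the most part on the one library in which the 22-nt sequence was not listed. By sex it was 4.86 points higher in males (exact permutation p = 0.381, adjusted p = 0.485), and 0.954 points higher without PGC13F (exact permutation adjusted p = 0.801). By day it was 19.7% ± 1.24 on E11.5, 25.5% ± 2.89 on E12.5 and 20.7% ± 14.6 on E13.5 (n = 4 each, F = 0.509, exact permutation p = 0.697, adjusted p = 0.750). Without PGC13F the E13.5 value was 27.6% ± 5.70 (n = 3) and F was 5.08 (exact permutation p = 0.0488, adjusted p = 0.171), whereas it ran from 0.304 to 1.16 with any other library left out. With the reads of 20 to 24 nt in place of 22 nt, an alternative chosen after the data were seen, the differences were 3.99 points by cell type and 2.47 points by sex, and F by day was 1.82 (exact permutation adjusted p = 0.404, 0.555 and 0.404).

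The 4 sequences with another 5′ end were listed in 1 to 5 SC libraries each and in 0 of 6 PGC libraries. All but the 18-nt sequence from 11615 end in C or CT, ends nearly missing in PGC13F, so that library says little about them. How many of all 204 sequences were listed in SC libraries alone was not counted. The 19-nt sequence from 11615 had 292 reads in SC11F, 342 in SC11M, 94 in SC12M, 1005 in SC13F and 75 in SC13M. The 20-nt sequence from 11615 had 72 reads in SC11M, 241 in SC13F and 68 in SC13M. The 18-nt sequences were rarer, with 140 reads in SC13F for the one from 11615, and 67 reads in SC11M and 149 in SC13F for the one from 11616. All end at the anticodon, and they took 11.4% of the mt-Ts2 reads in SC11M, 6.51% in SC13F and at most 2.31% in the other SC libraries.

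Several of these values were close to the limit of listing. The smallest listed values, which the limit cannot exceed, were 15.8 to 17.8 rpm in PGC libraries and 14.6 to 15.8 rpm in SC libraries. The 19-nt sequence from 11615 in SC12M (16.7 rpm) and SC13M (16.5 rpm) lay below the smallest listed value of some PGC libraries. It might therefore not have been listed there at such levels. At a common floor of 25 rpm the 19-nt sequence was present in 3 SC libraries (51.2 rpm in SC11F, 77.6 in SC11M and 150 in SC13F) and in 0 PGC libraries, and the 20-nt sequence in 1 SC library.

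Single sequences were compared with edgeR over all 97 sequences listed in at least 3 libraries, of which 16 were mt-Ts2 sequences. Between cell types 2 of the 97 were called at an adjusted p under 0.05 (2.06%), and 1 of the 16 mt-Ts2 sequences was. This was the 19-nt sequence from 11615, at 52.0 ± 55.5 rpm in SCs and not listed in PGCs (edgeR adjusted p = 0.0394). No fold is given, since the PGC libraries list it at 0. The call was lost without any one of 9 of the 12 libraries, with an adjusted p of 0.557 without PGC13F, 0.447 without SC13F and 0.289 without SC11M, and also with TMM normalization (0.415), with unlisted values set to the lowest listed count (0.190) and with matched pairs as a block (0.126). Since it was listed in 5 SC and 0 PGC libraries, this sequence passed the filter of 3 libraries through SCs alone and could differ in 1 direction only, so the call is given as a description and not as support for a difference. The same holds for the 20-nt sequence from 11615, and the rarer 18-nt sequences with another 5′ end were not tested.

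The longest sequences, listed in more SC than PGC libraries, did not pass the edgeR test. The 32-nt sequence was listed in 6 of 6 SC libraries, at 19.3 to 67.2 rpm, and in 2 of 6 PGC libraries, at 29.3 rpm in PGC11F and 17.9 rpm in PGC11M (edgeR adjusted p = 0.328). This sequence ends in CT, an end nearly missing in PGC13F, so its lack of listing in PGC13F says little. The 33-nt sequence was listed in 5 of 6 SC libraries, at 16.9 to 33.7 rpm, and in PGC11F alone among PGCs, at 18.6 rpm (edgeR adjusted p = 0.650). At 25 rpm or more the 32-nt sequence was present in 5 SC libraries and 1 PGC library, and the 33-nt sequence in 3 and 0. With DESeq2 both lengths were called (adjusted p = 1.11e-05 and 0.000746). DESeq2 called 14 of the 97 sequences that passed the filter and 3 of the 16 of mt-Ts2, so the shares were similar. The remaining call in mt-Ts2 was the 19-nt sequence from 11615, to which the limit of the filter applies as above. The SC libraries alone would also have carried the 32- and 33-nt sequences past the filter, so their calls too are given as a description.

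Between sexes edgeR called 0 of 97 sequences (0%), with 4 at an unadjusted p under 0.05, of which 1 was an mt-Ts2 sequence, the 18-nt one (edgeR adjusted p = 0.726), while DESeq2 called 3, none of mt-Ts2. Between days edgeR called 0 of 97 (0%), with 2 at an unadjusted p under 0.05 and 0 of mt-Ts2, and DESeq2 called 0.

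Among the 22 mitochondrial tRNA genes, 10 held sense sequences and 8 held exact matches, with 182015 exact reads in all. mt-Ts2 accounted for 81.2% of them and mt-Ts1, the gene of the other mitochondrial serine tRNA, for 30008 reads. The neighbours of mt-Ts2 on the same strand were nearly empty, with 78 reads in mt-Th and 0 in mt-Tl2, which starts at 11671. The mt-Ts1 ladder from its first base was shorter, with a mean length of 19.1 ± 0.571 nt against 23.1 ± 0.687 nt for mt-Ts2 (SD, n = 12), and that of mt-Rnr2, the 16S ribosomal RNA gene, was longer at 26.0 ± 0.667 nt. The differences within libraries were 3.98 and -2.88 nt and went the same way in 12 of 12 libraries (exact sign-flip permutation p = 0.000488, the smallest that 12 libraries allow, adjusted p = 0.00342 for both). Without PGC13F they were 4.03 and -2.79 nt. The mt-Ts1 ladder has 7 sequences at a mean of 454 rpm, and in PGC12F it held 40.3 rpm, where the smallest listed value was 16.9 rpm. Its rarer lengths may therefore have been below the limit of listing, and the part of this in its mean length was not tested.

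Most of the sequences could also be placed in the nuclear genome. Over the 21 nuclear chromosomes of GRCm39, 19 of 22 had an exact match, 20 had a match with up to 1 mismatch, and the 32- and 33-nt sequences had none. For the sequences from the first base, the number of matches with up to 1 mismatch fell with length, from 447 for the 16-nt sequence over 127, 37, 12 and 4 for the 17- to 20-nt sequences to 1 for each of 21 to 31 nt. The sequences with another 5′ end had 2 to 25. From 19 to 30 nt from the first base, the exact match is a single place, on the reverse strand of chromosome 2 (69185882 to 69185911), annotated as intergenic. This nuclear copy of mtDNA is identical to the first 30 bases of mt-Ts2 and to the 99 bases before it, in mt-Th and beyond. The identity ends at base 30, and beyond it 19 of the 29 remaining bases of the gene differ in an alignment without gaps. The 32- and 33-nt sequences, with 1728 and 908 reads, thus match the mtDNA and not this copy, and the 31-nt sequence (7595 reads) matches the copy with 1 mismatch. The shortest sequences had more exact nuclear places, with 11 for the 16-nt sequence, 3 each for the 17- and 18-nt sequences from the first base and 2 for the 18-nt sequence from 11615. For the sequences of 30 nt or less, the mtDNA and their exact nuclear places cannot be told apart by sequence.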

How the data were processed

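Per the file headers, each of the 12 deposited lists gives unique sequences and their counts, whole reads that the authors did not normalize. The authors trimmed adapters with Trim Galore (minimum overlap of 1 base with an adapter that begins with A), merged reads of the same sequence, dropped those below 10 CPM, mapped the rest to GRCm39 and mtDNA with Bowtie (up to 1 mismatch) and kept those that match a database of PIWI-bound sequences. Such trimming can remove a final A from a read without adapter, so that neighbouring lengths may be joined. Its part in the lengths was not tested.

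All 204 sequences were realigned to the GRCm39 mtDNA without gaps, and the 22 sequences to 21 nuclear chromosomes (Python 3.11.15, numba 0.67.0). Levels are reads per 1000000 of the total the study lists, which covers only sequences above its limit; the lists hold 16061 to 59545 reads per library. Groups were taken from the labels. Levels, shares and lengths were compared by two-sided exact permutation tests (924 assignments for cell type and sex, 34650 for day, 4096 sign patterns for ladders; scipy 1.17.1), with Benjamini-Hochberg adjustment over 14 tests and a pseudocount of 1 rpm. Single sequences were tested with the quasi-likelihood test of edgeR 4.0.16 (cell type, sex and day as terms, sequences in at least 3 libraries, Benjamini-Hochberg adjustment), which was tested on simulated data, and with DESeq2 1.42.0 as an alternative. The simulated counts had no limit of listing, so they do not cover the unlisted values of these data.

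Sequences were named with values when among the 5 most read, the shortest or longest from the first base, those with another 5′ end, or called by edgeR; the other lengths given were chosen after their values were seen. The members and lists were chosen with earlier results of these data known. Alternatives were another denominator, normalization, filter, floor or pseudocount, added 1-mismatch sequences, lengths from 20 nt, matched pairs as a block and each library left out. Added after seeing the data was the share of 20 to 24 nt in place of 22 nt. Replicate numbers only name libraries; matched pairs share sex and day, or cell type and day.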

Additional observations from a re-analysis of the deposited data

Results flagged for a closer look

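In 3 of 12 groups checked, 1 library lay far from the others of its group, and chance alone marks about 1 in 20 groups. The mt-Ts2 share of mito-piRNA reads was 16.7% in SC11M, while the other 5 SC libraries had 42.2% to 53.6%. The 22-nt sequence took 0% of the first-base reads in PGC13F, where it was not listed, and 19.7% to 26.9% in the other PGC libraries. The mean length of the mt-Rnr2 ladder was 26.3 nt in PGC13M, apart from the other PGC libraries.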

How the results depend on the processing

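The level of the mt-Ts2 sequences by sex changed direction, from 0.10 to -0.46 with mitochondrial small RNA reads as the denominator, -0.15 without PGC12F and -0.22 without SC13M (range over libraries left out -0.22 to 0.31), and passed no threshold in any of these. Between cell types, edgeR calls fell from 1 mt-Ts2 sequence and 2 in all to 0 and 0 with TMM normalization, with listing in at least 6 libraries, with unlisted values set to the lowest listed count, and with matched pairs as a replicate block; they ranged from 0 to 1 and from 0 to 2 with a library left out. DESeq2 called 3 of 16 mt-Ts2 sequences and 14 of 97 in all between cell types, and 3 in all between sexes against 0. The adjusted p of the 19-nt sequence from 11615 ran from 0.00348 to 0.557 with a library left out. The cause of these changes was not tested, except that the filter of 6 libraries removes that sequence. The block changed no other call, and no edgeR fit with a block was run for day. Both ladder differences kept direction and side of the threshold under all alternatives run, at 3.90 to 4.16 nt and -3.08 to -2.68 nt with a library left out. All other levels, shares and lengths stayed on the side of the threshold they had. The limits of listing, at most 14.6 to 17.8 rpm by library, set what can be said of the rare sequences.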
